A study of Homo sapiens with 42 samples.

Results

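Mitosis genes, a set of 44 listed genes whose products drive and carry out cell division, were followed across a transcriptome study of ENL in leukaemia cells. The members were chosen by name, from a list of cyclins, mitotic kinases, checkpoint proteins, kinetochore and spindle proteins, kinesins, cytokinesis factors and transcription factors, and were found by their GENCODE symbols. All 44 names matched exactly 1 of the 58721 gene identifiers, and 44 of 44 passed the filter on low counts in each of the 4 tables. The list was drawn up with earlier results of these data known. ENL, encoded by MLLT1, is a chromatin reader that binds acylated histones, and MS41 is a small molecule made to have ENL degraded.

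RNA was sequenced from 42 libraries in 15 groups, all of human leukaemia cell lines. MV4;11 cells (acute monocytic leukaemia with an MLL-AF4 fusion and a FLT3 internal tandem duplication) of genotype WT received DMSO, 100 nM MS41, 100 nM MS41N or 100 nM PFI-6 for 6 h or 24 h, in 3 libraries per condition. MS41N is the study's control compound, written MS47N in the treatment protocol, and PFI-6 is a ligand of the YEATS domain of ENL and AF9 that is not a degrader. SEMK2 cells (B-lineage acute lymphoblastic leukaemia with an MLL-AF4 fusion), also WT, received DMSO or MS41 at the same dose, with 3 libraries each and no time in the sample labels. MV4;11 cells with a control guide (genotype WT) or with guide 1 or guide 2 against ENL (genotype ENL KO) gave 2 libraries per guide. The last 2 groups are MV4;11 cells recovered from mice after vehicle or MS41 (3 libraries per group), for which the labels give no dose, time, mouse strain or age, and their RNA was amplified with a low-input kit. The labels do not say whether the guide cells were clones or pools, nor whether replicates were separate cultures or animals, so p-values measure the spread between these libraries, which may be technical.

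Mitosis begins when CDK1 bound to cyclin B becomes active, after CDC25 phosphatases remove inhibitory phosphates from CDK1. Polo and Aurora kinases, the kinetochore and the spindle kinesins then attach and align the chromosomes, while the spindle checkpoint holds back the anaphase-promoting complex until every kinetochore is attached. Most of these genes are transcribed in waves that peak in G2 and M phase, under MuvB complexes that are joined by B-MYB (MYBL2) or FOXM1 in cycling cells and by RB-family proteins in resting cells. MuvB binds a cell cycle genes homology region near the start site, often close to CCAAT boxes bound by NF-Y. In bulk RNA, fewer cells in G2 and M phase and less RNA per cell cannot be told apart.

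Library totals, in units of 1000000 counts, ran from 77.22 to 230.6 over the 42 libraries, and the smallest count of any member in any library was 431 (PRC1, with the control guide). The biological coefficient of variation was 4.77% in the MV4;11 compound table, 11% in SEMK2, 9.21% with the guides and 13% in the mice. MLLT1 read 223 and 250 CPM (counts per 1000000 of the TMM-scaled library size) with the control guide, 181 and 190 CPM with guide 1, and 123 and 127 CPM with guide 2. The levels with both guides lay below those of the control guide, with a log2 fold change of -0.35 (SE 0.07, adjusted p = 0.012) for guide 1 and of -0.92 (SE 0.07, adjusted p = 1.8e-05) for guide 2. Transcript levels show what a guide left of the RNA, not of the protein. CD33, a myeloid marker, stood at 92.9 to 97.6 CPM in MV4;11 with DMSO at 24 h, and CD79A, a marker of B cells, at 148 to 174 CPM in SEMK2 with DMSO.

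Per kilobase of exon, the members' levels spread widely within a group. TOP2A, the topoisomerase that untangles chromosomes, was the highest in every cultured group, at 191 CPM per kb in MV4;11 with DMSO at 6 h, while the median member stood at 30.4 CPM per kb. MYBL2 was the highest in the mouse groups, at 72.1 CPM per kb with vehicle. The lowest in MV4;11 with DMSO at 6 h was PRC1, which bundles midzone microtubules, at 1.41 CPM per kb. The annotation overlaps 58.4% of PRC1's exon length and 62.2% of that of NUSAP1, a spindle protein, with other genes. NUSAP1 overlaps a gene on its own strand, and PRC1 overlaps genes on both strands. A same-strand overlap is ambiguous at any strand setting, and the setting of the counting is not given in the sources used here. The levels of both are thus uncertain. Named pseudogenes exist for UBE2C, AURKA, CCNB2, CDC20, BUB1, BUB3 and DLGAP5. The summed level of all 44 members was 7890 to 7929 CPM in the DMSO libraries at 6 h and 7629 to 7801 CPM at 24 h, 8169 to 8527 CPM in SEMK2 with DMSO, 5546 and 6105 CPM with the control guide, and 3219 to 3391 CPM with vehicle in mice. The control guide libraries and the mouse libraries thus held less of their counts in these genes than the DMSO libraries did; those tables were made from separate experiments, and the mouse libraries with another kit, so the levels were not tested across them.

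Many of the members share letters in their promoters. RefSeq windows (GRCh38.p14), 250 bases before to 50 bases after a gene's start, were found for 37 of the 44 members; AURKA, BUB3, TTK, BIRC5, TPX2, UBE2C and FOXM1 were not matched. The core of the cell cycle genes homology region, TTTGAA or TTCGAA on either strand, stood in at least 1 window of 28 of the 37 members (75.7%), against 19.5% of the 27305 genes with a window. CCAAT on either strand stood in a window of 29 members (78.4%), against 39.7% of those genes, and both kinds of match stood in 1 window of 24 members (64.9%), against 7.85%. The E2F letters GCGGGAA or GCGCGAA stood in a window of 7 members (18.9%), against 10.2%. Those 27305 genes include non-coding ones. Of the 14896 protein-coding genes with a window, 13.9% held E2F letters, 17.4% a homology-region core, 42.3% CCAAT and 7.28% both of the latter. Some genes have several windows, which can overlap. TTCGAA reads the same on both strands, and no other letters searched are contained in each other. Counted once per place in the genome, the members' windows held 41 homology-region matches, and 27 of the 41 began between 60 bases before and 30 bases after a start site. A match of letters describes the window and is not a measured binding site.

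The 250 bases before the start site are printed for 4 of the members: CDC20 and CCNB1, which fell with MS41 at 24 h, and KIF11 and ASPM, which rose at both times. Capitals mark the letters searched, on either strand, so that CCAAT on the other strand reads ATTGG and TTTGAA reads TTCAAA. The stretches run 5′ to 3′ on the gene's strand and lie at chr1:43358731-43358980 (plus strand) for CDC20, chr5:69166900-69167149 (plus strand) for CCNB1, chr10:92592880-92593129 (plus strand) for KIF11 and chr1:197146670-197146919 (minus strand) for ASPM, all in GRCh38.p14.
CDC20: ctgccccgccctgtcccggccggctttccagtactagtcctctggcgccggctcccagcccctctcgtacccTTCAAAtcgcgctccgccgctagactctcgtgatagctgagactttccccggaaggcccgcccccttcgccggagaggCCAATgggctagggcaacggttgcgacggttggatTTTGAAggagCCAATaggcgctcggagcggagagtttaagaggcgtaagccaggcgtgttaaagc
CCNB1: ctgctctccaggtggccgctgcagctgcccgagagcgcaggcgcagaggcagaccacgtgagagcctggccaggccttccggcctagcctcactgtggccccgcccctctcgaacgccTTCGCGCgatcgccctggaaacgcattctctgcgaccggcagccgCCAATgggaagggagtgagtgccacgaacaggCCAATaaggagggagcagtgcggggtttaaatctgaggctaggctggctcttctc
KIF11: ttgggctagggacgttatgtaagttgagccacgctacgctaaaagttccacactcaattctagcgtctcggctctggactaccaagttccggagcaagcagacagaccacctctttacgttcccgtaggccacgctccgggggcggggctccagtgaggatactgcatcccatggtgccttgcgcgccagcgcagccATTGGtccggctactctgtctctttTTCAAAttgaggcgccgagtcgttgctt
ASPM: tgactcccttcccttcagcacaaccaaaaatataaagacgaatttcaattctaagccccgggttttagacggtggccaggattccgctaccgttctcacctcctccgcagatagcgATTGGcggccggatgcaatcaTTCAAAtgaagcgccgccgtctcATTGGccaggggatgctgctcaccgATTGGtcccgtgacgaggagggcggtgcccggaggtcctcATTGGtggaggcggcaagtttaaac
CDC20 held 2 TTTGAA and 2 CCAAT matches in these bases and CCNB1 held 2 CCAAT matches, 1 GCGCGAA and no homology-region core. KIF11 held 1 TTTGAA and 1 CCAAT match, and ASPM held 1 and 4. Letters of these kinds thus stood before genes that moved in opposite directions. The 250 bases before MYBL2, not printed, held none of the letters searched. Of the members called at 24 h with a window, 12 of the 14 that rose and 8 of the 13 that fell held a homology-region core, as did 8 of the 10 that were not called.

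At 6 h, MS41 raised 22 of the 44 mitosis genes and lowered 2 against DMSO in MV4;11, at an adjusted p below 0.05 in edgeR's quasi-likelihood test with Benjamini-Hochberg adjustment over all genes. Of all 22711 genes tested, 12.2% were called higher and 13.8% lower. The changes were small: the median log2 fold change of the members was 0.08, against 0.02 over all genes, and 38 of 44 lay above 0. Of the 6 kinetochore and centromere genes 5 rose, as did 5 of the 6 genes of the spindle and its midzone, 4 of the 6 kinesins (CENPE counts here and at the kinetochore) and both cytokinesis genes, and none of these fell. Some of these calls were weak. The spindle gene TPX2 lost its call with no filter on low counts (adjusted p = 0.29 in edgeR) and without DMSO replicate 1 (0.24). NUSAP1 lost its call with no filter (0.085), and the kinesin KIF20A without MS41 replicate 1 (0.11). None of the 4 chromosomal passenger genes was called, and of the 5 mitotic kinases TTK alone was. The summed member level was 8261 to 8437 CPM, above each DMSO library at 6 h. Of the 7 mature myeloid markers tested 4 rose and 1 fell in the same libraries (median 0.25), while their summed level was 623 to 629 CPM with MS41 and 645 to 657 CPM with DMSO, and their part in the 6 h result was not tested.

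Among the entry genes, CDC25C, a phosphatase that activates CDK1, had the largest rise of the 44. It read 20.6, 20.1 and 19.5 CPM with DMSO and 25.1, 25.4 and 27 CPM with MS41, with no overlap. Its log2 fold change was 0.37 (SE 0.05, adjusted p = 4.2e-08), and 8.78% of its exon length overlaps FAM53C on the opposite strand. CDK1 itself read 191, 204 and 197 CPM with DMSO and 226, 221 and 223 CPM with MS41. All 3 MS41 libraries lay above the 3 DMSO libraries, and CDK1 rose by 0.18 (SE 0.03, adjusted p = 4.3e-06) on the log2 scale. CCNB1, the main cyclin B, was at 287, 289 and 291 CPM with DMSO and 287, 276 and 265 CPM with MS41, a difference of -0.07 that missed the threshold (adjusted p = 0.068). Without MS41 replicate 1 it was called lower, at -0.10 (adjusted p = 0.011). PLK1, the polo kinase, read 137, 136 and 134 CPM with DMSO and 139, 134 and 133 CPM with MS41, and AURKA, the spindle pole Aurora kinase, 121, 119 and 120 CPM and 128, 119 and 123 CPM. The ranges of both kinases overlapped, and neither was called.

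Of the kinetochore genes, NUF2, a subunit of the NDC80 complex that grips microtubules, stood at 61.7, 61.3 and 64.6 CPM with DMSO and at 77.9, 76.7 and 74.1 CPM with MS41. Its groups did not overlap, and it rose by 0.29 (SE 0.03, adjusted p = 3.3e-10) on the log2 scale. Its partners NDC80 and SPC25 rose by 0.26 and 0.22. CENPE, the kinesin that carries chromosomes to the metaphase plate, read 213, 216 and 214 CPM with DMSO and 255, 269 and 259 CPM with MS41. Every MS41 library exceeded every DMSO library, for a rise of 0.28 (SE 0.03, adjusted p = 3.7e-11). Separase (ESPL1), the protease that cuts cohesin at anaphase, rose by 0.28 (adjusted p = 4.7e-08), and KIF4A, KIF11, ECT2 and ASPM rose by 0.24, 0.23, 0.21 and 0.21. CENPA, the centromeric histone, had a difference of 0.00 (adjusted p = 0.96).

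The 2 genes that fell at 6 h both belong to the spindle checkpoint. BUB3 (chromosome 10, 123154277 to 123170467, plus strand, GRCh38), which brings BUB1 and BUBR1 to kinetochores, read 369, 382 and 375 CPM with DMSO and 312, 310 and 307 CPM with MS41. The 2 ranges were well apart, and BUB3 fell by 0.28 (SE 0.02, adjusted p = 8.8e-13) on the log2 scale. MAD1L1, which loads MAD2 at unattached kinetochores, read 31.2, 31.2 and 30.3 CPM with DMSO and 28.2, 28 and 27.5 CPM with MS41, a fall of 0.15 (SE 0.05, adjusted p = 0.011). None of the other checkpoint genes was called lower: MAD2L1 and BUB1B had differences of 0.01 and 0.07 that were not called. BUB1 was not called either, and TTK rose by 0.15.

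**Figure D1:**
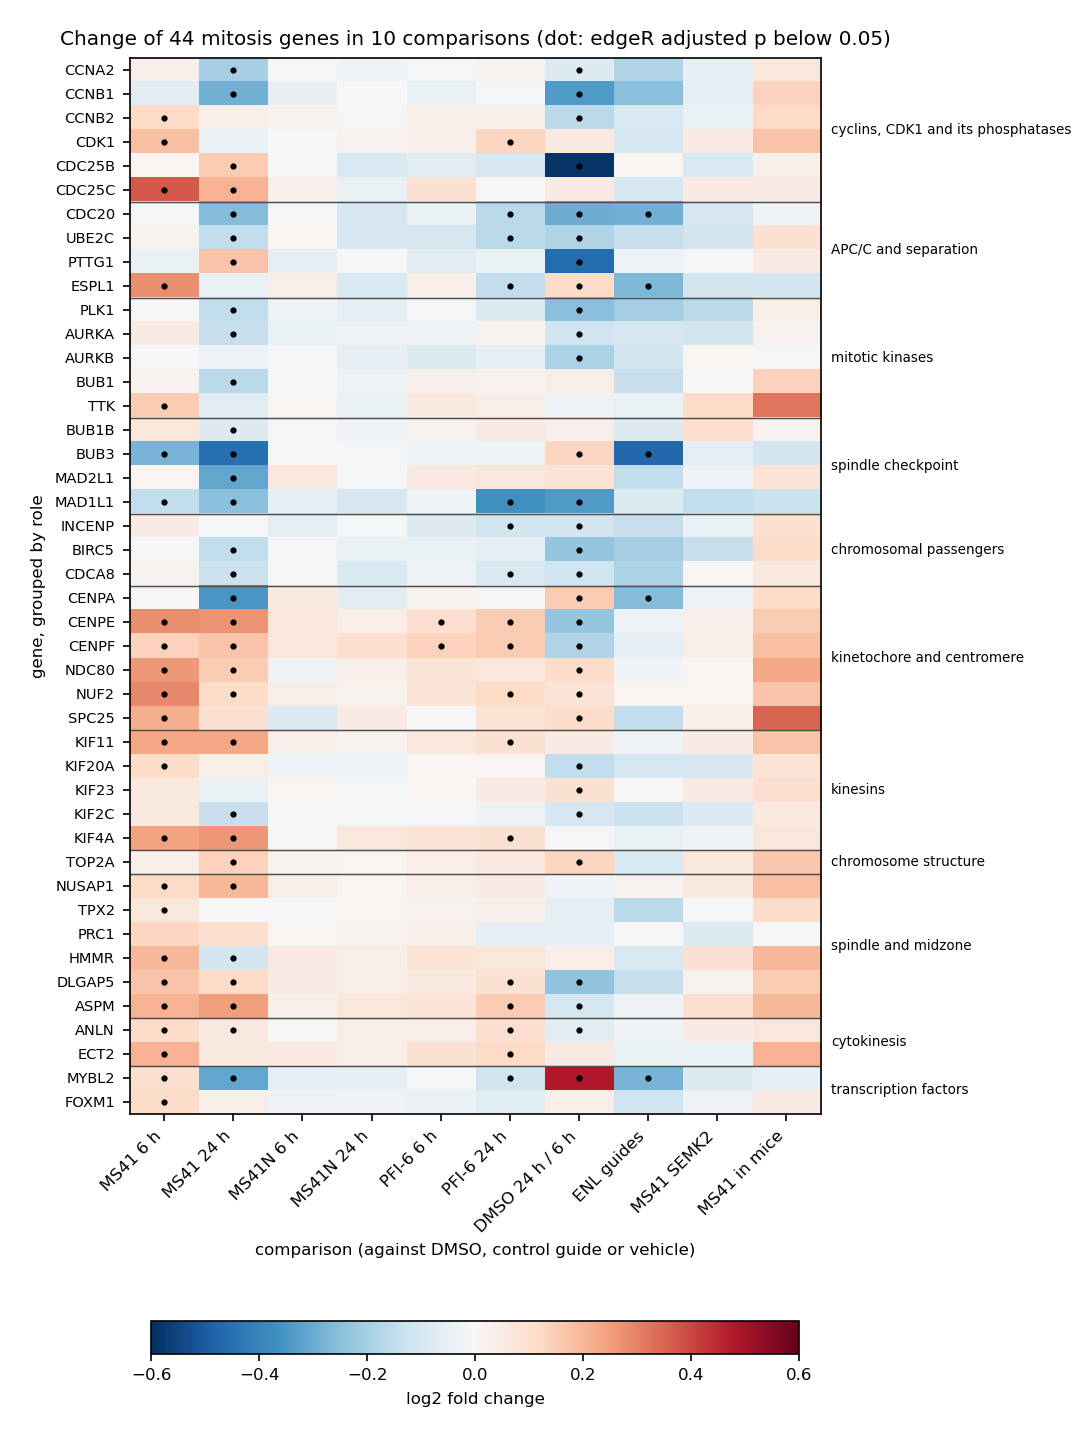
Log2 fold change of the 44 mitosis genes (rows, grouped by role) in 10 comparisons (columns: each compound against DMSO, DMSO at 24 h against 6 h, both ENL guides against the control guide, MS41 against DMSO in SEMK2 and against vehicle in mice). Dots mark an adjusted p below 0.05 in edgeR: 24 genes carry one for MS41 at 6 h, 31 at 24 h, 0 for MS41N, and BUB3 is the deepest blue cell of the MS41 24 h and guide columns.

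At 24 h the same set split. MS41 raised 14 members and lowered 17 against DMSO at 24 h, where 21.4% of all genes were called higher and 22.9% lower. The members' median was -0.02 and that of all genes 0.02, and the summed member level of 7549 to 7901 CPM with MS41 overlapped the 7629 to 7801 CPM of DMSO. Of the spindle checkpoint genes 5 of 6 fell (BUB1 and TTK count here and among the kinases) and none rose. BUB1B lost its call without DMSO replicate 1 (adjusted p = 0.085 in edgeR) and without MS41 replicate 3 (0.18). The calls of BUB1B and MAD1L1 also ended in a fit, given below, that removes a trend over GC content. Of the 5 mitotic kinases 3 fell, as did 2 of the 4 chromosomal passengers, while 4 of 6 kinetochore genes, 3 of 6 kinesins and 3 of 6 spindle genes rose. The mature myeloid markers moved in the same libraries: 6 of the 7 tested rose (median 1.58), and their summed level was 2846 to 3024 CPM with MS41 against 1522 to 1573 CPM with DMSO. The part of these markers in the 24 h result was not tested.

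BUB3 again fell most. It read 412, 412 and 404 CPM with DMSO and 299, 308 and 290 CPM with MS41 at 24 h. The lowest DMSO library lay far above the highest MS41 library, and the log2 fold change was -0.45 (SE 0.02, adjusted p = 1e-20), a change of -27.0%. CENPA, not called at 6 h, read 61.1, 61.4 and 58.4 CPM with DMSO and 45, 51.1 and 45.9 CPM with MS41. It fell by 0.35 (SE 0.04, adjusted p = 2.5e-10) with no overlap. MAD2L1, which blocks CDC20 while the checkpoint is on, fell by 0.31 (adjusted p = 2.2e-07), BUB1 by 0.16 (adjusted p = 4.1e-07) and MAD1L1 by 0.25 (adjusted p = 1.5e-05).

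Cyclins A2 and B1 (CCNA2 and CCNB1) and CDC20 and UBE2C, which act in the exit from mitosis, fell with them. CCNB2 (0.04, adjusted p = 0.32) and ESPL1 (-0.04, adjusted p = 0.4) were not called, and PTTG1, the securin that holds separase back, rose by 0.17 (adjusted p = 0.00016). CCNB1 read 229, 224 and 231 CPM with DMSO and 187, 193 and 180 CPM with MS41, below every DMSO library. Its log2 fold change was -0.29 (SE 0.03, adjusted p = 1.9e-12), and that of CCNA2 was -0.20 (adjusted p = 3.9e-08). CDC20, which switches on the anaphase-promoting complex, read 124, 122 and 126 CPM with DMSO and 102, 107 and 100 CPM with MS41. The groups were apart by more than their spread, and CDC20 fell by 0.26 (SE 0.04, adjusted p = 2.4e-07). UBE2C, the ubiquitin-conjugating enzyme that works with that complex, fell by 0.15 (adjusted p = 0.00038). PLK1 read 115, 109 and 119 CPM with DMSO and 102, 104 and 103 CPM with MS41, a fall of 0.15 (SE 0.03, adjusted p = 3.7e-05). AURKA went from 110, 111 and 109 CPM to 99.5, 104 and 96.1 CPM, a fall of 0.14 (adjusted p = 0.00022). AURKB, the Aurora kinase among the chromosomal passengers, had a difference of -0.03 that was not called (adjusted p = 0.62).

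Other members stayed above DMSO at 24 h. KIF4A, a chromosome-arm kinesin, read 78.5, 80.5 and 79.8 CPM with DMSO and 94.6, 98.1 and 93.7 CPM with MS41, a rise of 0.26 (SE 0.03, adjusted p = 5.8e-11). ASPM, a spindle pole protein, read 304, 296 and 296 CPM with DMSO and 356, 358 and 349 CPM with MS41, a rise of 0.25 (SE 0.03, adjusted p = 2.4e-11). In both genes the groups did not overlap. CENPE, at 186, 183 and 178 CPM with DMSO and 226, 219 and 218 CPM with MS41, rose by 0.27 (SE 0.03, adjusted p = 1.8e-11), and KIF11, the motor that separates spindle poles, rose by 0.23. TOP2A, the most abundant member, read 1364, 1363 and 1307 CPM with DMSO and 1489, 1527 and 1444 CPM with MS41, a rise of 0.14 (SE 0.02, adjusted p = 7.9e-07). The MS41 libraries were the higher for TOP2A as well, and it had not been called at 6 h.

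**Figure D2:**
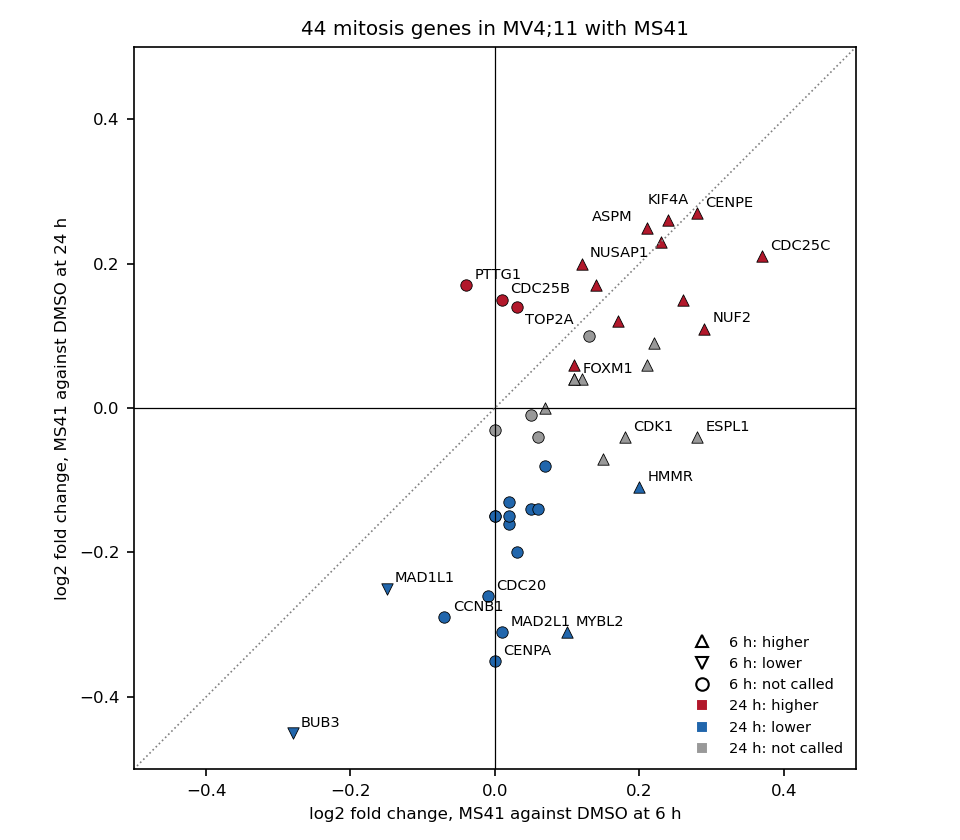
Log2 fold change with MS41 against DMSO in MV4;11 at 6 h (x axis) and at 24 h (y axis) for the 44 mitosis genes, with the marker shape giving the call at 6 h and the colour the call at 24 h; the dotted line marks equal changes. Most points lie to the right of 0, and BUB3 at -0.28 and -0.45 stands alone at the lower left.

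Over the 2 times, 11 members rose at both (CDC25C, CENPE, CENPF, KIF11, KIF4A, NUSAP1, ANLN, NDC80, NUF2, DLGAP5 and ASPM) and 2 fell at both (BUB3 and MAD1L1). The calls of 3 of the 11 could end when 1 library was left out: ANLN at 24 h (adjusted p up to 0.27), NUF2 at 24 h (0.064, without MS41 replicate 2) and NUSAP1 at 6 h (up to 0.16). A further 9 were called higher at 6 h alone, 13 lower at 24 h alone and 3 higher at 24 h alone (CDC25B, TOP2A and PTTG1), and AURKB, INCENP, KIF23 and PRC1 were called at neither. MYBL2 and HMMR went from a rise to a fall. MYBL2 (chromosome 20, 43667019 to 43716496, plus strand, GRCh38), the B-MYB transcription factor, read 149, 144 and 147 CPM with DMSO and 162, 154 and 154 CPM with MS41 at 6 h, a rise of 0.10 (SE 0.03, adjusted p = 0.0072). That rise was the less firm of its changes: the adjusted p was 0.11 without MS41 replicate 1 at 6 h, 0.072 without DMSO replicate 2 at 6 h and 0.063 with no filter on low counts. At 24 h MYBL2 read 198, 209 and 208 CPM with DMSO and 163, 169 and 163 CPM with MS41, a fall of 0.31 (SE 0.03, adjusted p = 1.9e-13). FOXM1, the other transcription factor, rose at 6 h, from 87.1, 87.6 and 86.2 CPM to 95.6, 94.7 and 90.7 CPM (0.11, adjusted p = 0.0089, and 0.065 without MS41 replicate 1). Its 24 h values of 89.9, 86.3 and 92.4 CPM with DMSO and 89.9, 94 and 92.1 CPM with MS41 overlapped (adjusted p = 0.35). HMMR, a spindle assembly factor, rose by 0.20 at 6 h (adjusted p = 1.1e-07) and fell by 0.11 at 24 h (adjusted p = 0.00091).

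The change of the MS41 effect from 6 h to 24 h was tested directly, as a difference of differences in the same fit. For 23 members the effect was lower at 24 h than at 6 h and for 2 (TOP2A and PTTG1) it was higher, beside 14.5% and 11.9% of all genes. The median change of the members was -0.14. It was most negative for MYBL2, at -0.41 (SE 0.04, adjusted p = 1.1e-11), then CENPA at -0.35, MAD2L1 at -0.33, ESPL1 at -0.32 and HMMR at -0.31. CDK1, higher at 6 h, was no longer called at 24 h, where it read 209, 208 and 201 CPM with DMSO and 202, 204 and 194 CPM with MS41, and its effect changed by -0.22 (adjusted p = 3.8e-05). CENPE and KIF11, higher at both times, had changes of -0.01 (95% interval -0.09 to 0.07) and 0.00 (-0.07 to 0.07).

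**Figure D3:**
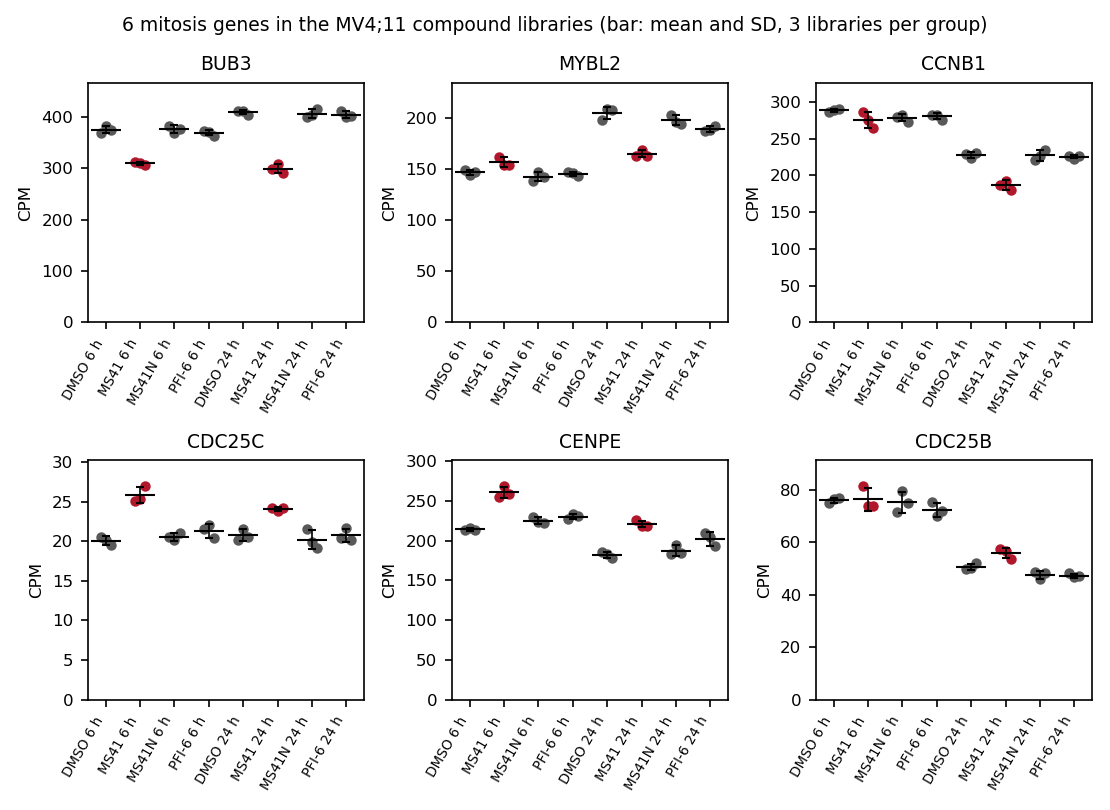
CPM of 6 mitosis genes in each of the 24 MV4;11 compound libraries (y axis from 0), by compound and time on the x axis; dots are libraries, red for MS41, and bars the mean and SD of 3. BUB3 is lower with MS41 at both times, MYBL2 is higher at 24 h than at 6 h in every arm and, at 24 h, lowest with MS41, and CDC25B is lower at 24 h in every arm.

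MS41N moved none of the 44 members at either time, beside 0.321% of all genes called at 6 h and 0.0352% at 24 h in edgeR; 5 and 10 members had an unadjusted p under 0.05, and DESeq2 called none. Set directly against MS41N, MS41 raised 22 members and lowered 1 at 6 h (10.1% and 11.7% of all genes) and raised 13 and lowered 15 at 24 h (20.5% and 21.9%). BUB3 read 399, 404 and 416 CPM with MS41N at 24 h, and MS41 was lower than MS41N by 0.44 on the log2 scale (adjusted p = 2.8e-20). CCNB1 differed between them by -0.28 and MYBL2 by -0.26.

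PFI-6 raised 2 members at 6 h, CENPF by 0.14 and CENPE by 0.10, and lowered none, beside 0.66% and 1.39% of all genes. CENPE lost its call without any 1 of the 6 libraries compared (adjusted p from 0.061 to 0.23), and CENPF without DMSO replicate 2 (0.058) or PFI-6 replicate 3 (0.051). At 24 h PFI-6 raised 10 and lowered 7, beside 5.57% and 6.78%. That total of 17 became 9 without DMSO replicate 3 and 10 without PFI-6 replicate 2. The genes that rose with PFI-6 at 24 h included ASPM (0.15, adjusted p = 0.00015), CENPE (0.15, adjusted p = 0.00025), CENPF and CDK1, and those that fell included MAD1L1 (-0.37, adjusted p = 1.6e-06), CDC20, UBE2C and MYBL2. MAD1L1 read 19.3, 18.2 and 19.3 CPM with PFI-6, below both its 23.9, 24.2 and 25.2 CPM with DMSO and its 20.4, 20.7 and 20.7 CPM with MS41. BUB3 was not among them. It read 412, 399 and 402 CPM with PFI-6 at 24 h, a difference from DMSO of -0.02 (95% interval -0.07 to 0.03). Against PFI-6 at the same time and dose, MS41 was lower for BUB3 by 0.44 (adjusted p = 4.9e-20), and 14 members were higher and 17 lower at 24 h (20.7% and 21.6% of all genes). At 6 h 21 were higher and 2 lower (9.35% and 10.1%).

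The members' GC content moved with these differences. Across the 44 genes, GC content and the log2 fold change of PFI-6 at 24 h had a Pearson correlation of -0.88; the genes share their libraries, and the value is a description. The correlation was -0.39 for MS41 at 6 h and -0.32 at 24 h. It was also negative where few or no members were called, at -0.68 for PFI-6 at 6 h, -0.52 and -0.74 for MS41N at 6 h and 24 h, -0.69 for MS41 in SEMK2 and -0.68 in mice. The 10 members that PFI-6 raised had a median GC content of 38.3% and the 7 that it lowered 57.9%, while the median of all 44 was 43.8%. With the trend over GC content of all genes removed, PFI-6 at 24 h left 0 higher and 3 lower (MAD1L1, UBE2C and BUB3), and at 6 h none. MS41 then gave 27 higher and 1 lower at 6 h, beside 14.8% and 12.9% of all genes, and 20 higher and 15 lower at 24 h, beside 25.5% and 19.9%. The 22 that rose at 6 h and the 14 that rose at 24 h were all still called, BUB3 was still called lower at both times, and MAD1L1 was called at neither (-0.10, adjusted p = 0.085 at 6 h, and -0.08, adjusted p = 0.12 at 24 h), nor BUB1B at 24 h. Removing the trend moved the median of all genes at 24 h from 0.02 to 0.08.

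**Figure D4:**
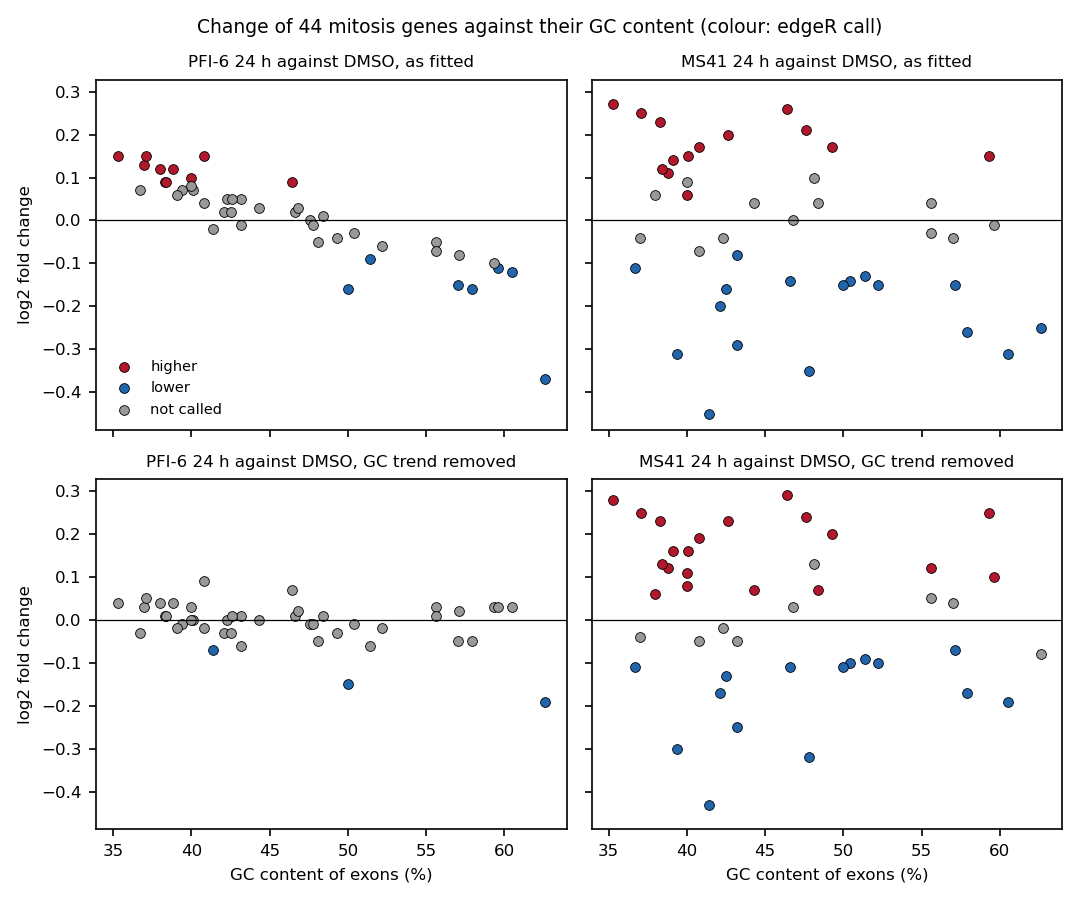
Log2 fold change of the 44 mitosis genes (y axis) against the GC content of their exons in percent (x axis) for the comparisons named above each panel. The points slope downward most steeply for PFI-6 at 24 h, where the correlation is -0.88.

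Untreated cells changed too. From 6 h to 24 h in DMSO, 9 members rose and 21 fell, beside 16.7% and 13.5% of all genes. The fall was largest for CDC25B, a phosphatase that starts CDK1 activation, which read 74.9, 76.4 and 76.7 CPM at 6 h and 49.7, 50.1 and 52 CPM at 24 h, a fall of 0.59 (SE 0.04, adjusted p = 6.4e-17). Securin (PTTG1) fell by 0.46, CCNB1 by 0.34, CDC20 by 0.30 and PLK1 by 0.25. MYBL2 went the other way, rising by 0.48 (SE 0.03, adjusted p = 9.7e-19). Time of culture and the day or plate of harvest cannot be told apart in this comparison, and the summed level of the mature myeloid markers was 645 to 657 CPM at 6 h and 1522 to 1573 CPM at 24 h, with 1 of the 7 tested called higher, none lower and a median of 0.07. Each MS41 value above was therefore set against DMSO of its own time.

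With guides against ENL, 5 members fell and none rose against the control guide, beside 4.98% of all genes called lower and 5.32% higher. The members' median was -0.10 and 40 of 44 lay below 0. BUB3 was first again: it read 427 and 452 CPM with the control guide, 314 and 329 CPM with guide 1, and 315 and 309 CPM with guide 2. Both guides lay below both control libraries, and their mean was lower by a log2 fold change of -0.47 (SE 0.06, adjusted p = 0.00038). Guide 1 alone gave -0.45 (adjusted p = 0.002) and guide 2 alone -0.49 (adjusted p = 0.0017), beside MLLT1 at -0.35 and -0.92. BUB3 was called lower with each library left out in turn.

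The other 4 that fell were ESPL1 (-0.27, adjusted p = 0.0089), CENPA (-0.26, adjusted p = 0.023), MYBL2 (-0.28, adjusted p = 0.027) and CDC20 (-0.29, adjusted p = 0.029). ESPL1 read 76.2 and 74.5 CPM with the control guide, 63.1 and 61.3 CPM with guide 1, and 63.3 and 61.9 CPM with guide 2, with no overlap. MYBL2 read 243 and 285 CPM with the control guide, 211 and 223 CPM with guide 1, and 225 and 215 CPM with guide 2, and CDC20 172 and 210 CPM, 154 and 158 CPM, and 160 and 154 CPM. The control libraries lay apart from each other in these genes, and leaving either out changed the count: without control replicate 1, 16 members fell (8.04% of all genes were called lower), and without control replicate 2, 2 did (BUB3 and ESPL1, beside 1.94%). Without control replicate 2, MYBL2 was at -0.15 (adjusted p = 0.26) and CDC20 at -0.13 (adjusted p = 0.31). Leaving out any library of either guide also ended the call of CDC20 (adjusted p from 0.056 to 0.12), and so it was for MYBL2 except without replicate 2 of guide 1. CENPA read 44 and 47.5 CPM with the control guide, 38.1 and 37.8 CPM with guide 1, and 39.3 and 37.4 CPM with guide 2, and its groups did not overlap. It lost its call without control replicate 2 (adjusted p = 0.2), without either library of guide 1 (0.056 and 0.063) and without replicate 2 of guide 2 (0.11). Without replicate 2 of guide 2, BUB3 alone was called. With the GC trend removed BUB3, CENPA and ESPL1 were called, and with a replicate block 9 members fell, CCNB1, PLK1, CCNA2 and CDCA8 among them. By itself, guide 1 called 3 members (BUB3, CENPA and ESPL1) and guide 2 called 2 (BUB3 and ESPL1), all lower, beside 7.48% and 4.94% of all genes. The summed mature myeloid markers were 1735 to 1993 CPM with guide 1 and 1624 to 1701 CPM with guide 2, against 533 to 765 CPM with the control guide, and their part in these falls was not tested.

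CCNB1 stood at the threshold with the guides: it read 168 and 199 CPM with the control guide, 145 and 157 CPM with guide 1, and 162 and 151 CPM with guide 2 (-0.25, SE 0.07, adjusted p = 0.05, just above the threshold). PLK1 read 161 and 187 CPM, 146 and 153 CPM, and 155 and 148 CPM (-0.21, adjusted p = 0.067). In both genes every guide library lay below both control libraries, and neither was called. CDK1 read 136 and 138 CPM with the control guide, 124 and 128 CPM with guide 1, and 131 and 127 CPM with guide 2 (-0.10, adjusted p = 0.28). AURKA read 93.1 and 99.9 CPM, 90.2 and 89.6 CPM, and 94.1 and 86.4 CPM (-0.10, adjusted p = 0.34). FOXM1 read 92.2 and 110 CPM, 92.2 and 98 CPM, and 87.7 and 94.4 CPM (-0.12, adjusted p = 0.34). The guide and control ranges of AURKA and FOXM1 overlapped, those of CDK1 did not, and none of the 3 was called.

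None of the genes that rose with MS41 at both times rose with the guides. CENPE was at -0.03 (adjusted p = 0.83), KIF11 at -0.02, KIF4A at -0.04 and ASPM at -0.03, each far from the threshold. The labels give the guide cells no time after editing, and whether the effects of guides and of MS41 differ was not tested, since they lie in separate tables.

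In SEMK2, MS41 changed none of the 44 members at the threshold in edgeR, beside 1.36% of all genes (291 genes); 10 members had an unadjusted p under 0.05 and DESeq2 called none. The members' log2 fold changes ran from -0.16 to 0.11 with a median of -0.01. BUB3 read 345, 347 and 348 CPM with DMSO and 323, 334 and 338 CPM with MS41. All 3 MS41 libraries were the lower, with a log2 fold change of -0.06 (SE 0.03, 95% interval -0.14 to 0.01, adjusted p = 0.45). MYBL2 read 372, 388 and 346 CPM with DMSO and 351, 348 and 348 CPM with MS41, so its ranges overlapped. PLK1 had the largest difference, from 132, 139 and 116 CPM to 112, 120 and 114 CPM (-0.16, SE 0.06, adjusted p = 0.26). Among the others, CCNB1 read 198, 211 and 201 CPM with DMSO and 198, 192 and 194 CPM with MS41, and CDK1 203, 207 and 221 CPM and 209, 225 and 221 CPM. AURKA read 79.2, 85 and 78.9 CPM with DMSO and 77.2, 74.1 and 73.3 CPM with MS41, and FOXM1 156, 164 and 149 CPM and 152, 153 and 155 CPM. The MS41 libraries were all lower for AURKA (-0.11, adjusted p = 0.28), while the ranges of CDK1 and FOXM1 overlapped and those of CCNB1 met. DMSO replicate 3 had the highest total of the table (230.6 in units of 1000000 counts) and stood apart from its group. A chi-square of the counts per degree of freedom was 58.5 and 65.2 between it and DMSO replicates 1 and 2. Between replicates 1 and 2 that value was 12.1. Mitochondrial genes held 3.13% of the counts of DMSO replicate 3, 2.37% and 2.21% in replicates 1 and 2, and 2.98% to 3.23% with MS41. Leaving out DMSO replicate 3 changed the count of called members. Without it 19 members were called, 7 higher and 12 lower, beside 5.83% and 7.65% of all genes, among them PLK1 at -0.23 (adjusted p = 0.00014), BIRC5 at -0.17 and TTK at 0.18; BUB3 was not among them.

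In MV4;11 cells from mice, MS41 changed none of the 44 members against vehicle in edgeR, beside 0.0328% of all genes (7 genes), while 13 members had an unadjusted p under 0.05. Of the 44 members 38 lay above 0, with a median of 0.09, and the summed level was 3385 to 3558 CPM with MS41 and 3219 to 3391 CPM with vehicle. TTK, the MPS1 kinase that starts checkpoint signalling, read 31.2, 31.4 and 31.8 CPM with vehicle and 39.7, 39.2 and 39 CPM with MS41. These groups did not overlap, and the log2 fold change of 0.32 (SE 0.07) had an adjusted p of 0.34 in edgeR; DESeq2 called it (adjusted p = 0.019), as did edgeR with no filter on low counts (adjusted p = 0.018). SPC25 read 9.81, 8.92 and 9.2 CPM with vehicle and 11.2, 12.3 and 12 CPM with MS41 (0.35, SE 0.11, adjusted p = 0.54). BUB3 read 180, 185 and 187 CPM with vehicle and 174, 168 and 168 CPM with MS41, lower in each MS41 library, with a log2 fold change of -0.11 (SE 0.06, adjusted p = 0.68). CCNB1 read 84.6, 86 and 91.7 CPM with vehicle and 99.4, 97.3 and 91.7 CPM with MS41, and CDK1 65.6, 70.5 and 64.6 CPM and 76.7, 70.9 and 77.9 CPM. PLK1 read 74, 74.1 and 83.7 CPM with vehicle and 82.7, 82.2 and 73 CPM with MS41, and AURKA 75.1, 74.2 and 75.3 CPM and 75.8, 76.4 and 75.7 CPM. The MS41 libraries were the higher for CDK1 and AURKA, in both by a narrow margin, and neither was called. FOXM1 read 79.4, 80 and 85.1 CPM with vehicle and 86.6, 85.5 and 80.8 CPM with MS41, and MYBL2 194, 197 and 209 CPM and 199, 196 and 186 CPM. The ranges of PLK1, FOXM1 and MYBL2 overlapped and those of CCNB1 met. The deposited mouse values appear to have been adjusted by replicate number, since same-number vehicle and MS41 libraries mirrored each other, though the labels describe no such step, and the fit therefore holds a term for replicate number. A fit without that term takes no account of the apparent adjustment, so its p-values may be too small. In that fit 4 members were called, all higher: TTK (adjusted p = 0.031), SPC25 (adjusted p = 0.043), KIF11 and NDC80.

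**Figure D5:**
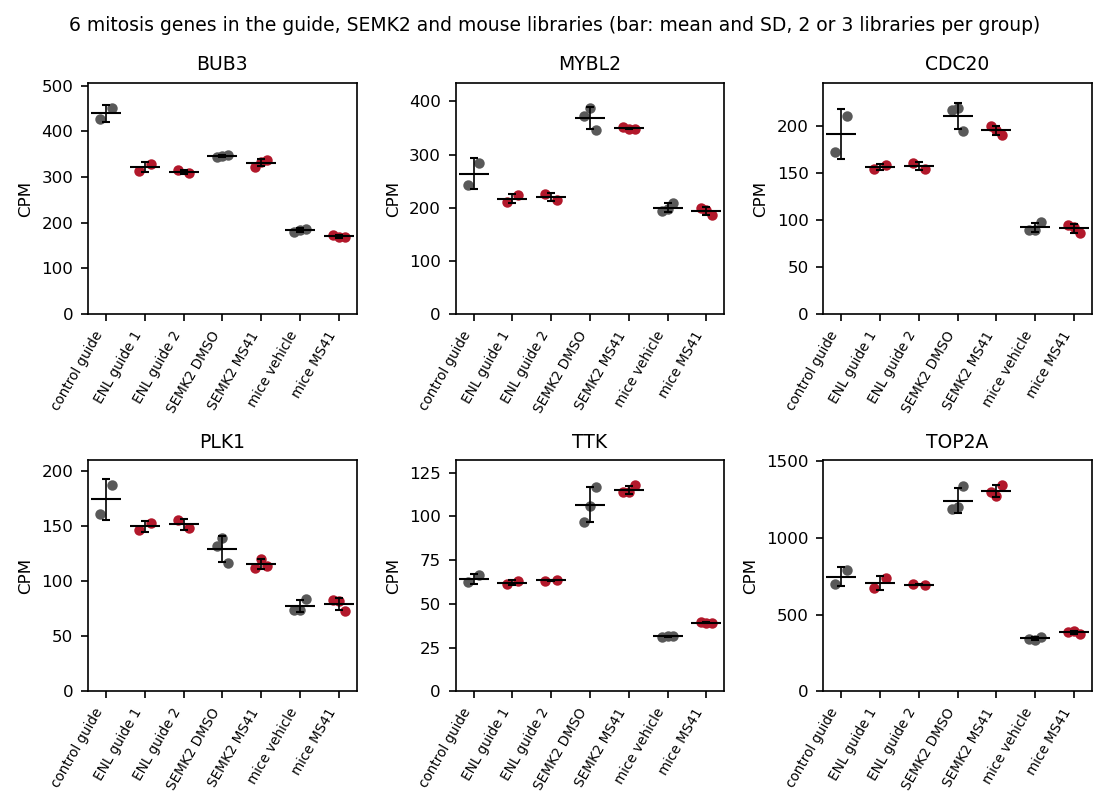
CPM of 6 mitosis genes (y axis from 0) in the guide, SEMK2 and mouse libraries (x axis); dots are libraries, red for ENL guides or MS41, and bars the mean and SD of 2 (guides) or 3 libraries. BUB3 is lower with both ENL guides than with the control guide, at 309 to 329 against 427 and 452 CPM, and TTK in mice sits at 39 to 39.7 CPM with MS41 and 31.2 to 31.8 CPM with vehicle (adjusted p = 0.34).

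Genes near the members were read from lists of the same pathways. Beside the counts that follow, MS41 raised 12.2% and lowered 13.8% of all genes at 6 h, and raised 21.4% and lowered 22.9% at 24 h. Among 80 other mitosis genes MS41 raised 44 and lowered 5 at 6 h (median 0.12). DSN1 and CENPQ of the kinetochore stood at 0.42 and 0.35, CENPT, also of the kinetochore, at -0.24 and CKS2, a CDK subunit, at -0.18. At 24 h MS41 raised 25 and lowered 27 of these genes, from PSRC1 at 0.44 to CDC25A, the G1 and S phase CDC25, at -0.64. For 41 of the 80 the effect was lower at 24 h than at 6 h and for 3 it was higher, beside 14.5% and 11.9% of all genes. Of 20 condensin, cohesin and cohesion genes 13 rose and 2 fell at 6 h, and 7 rose and 4 fell at 24 h. Of 17 genes of the anaphase-promoting complex and its partners 5 fell and none rose at 6 h, and 10 fell and 1 rose at 24 h, with ANAPC1, its largest scaffold, at -0.36 and UBE2S at -0.34. Of 14 MuvB, DREAM and CCAAT-binding regulators 4 rose and 5 fell at 6 h, and 3 rose and 7 fell at 24 h, with TFDP1, the E2F partner, at -0.50 and NFYA at -0.34.

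Genes of S phase and of the CDK inhibitors moved in the same libraries. Of 36 S phase genes, which copy DNA before mitosis, 30 rose and 2 fell with MS41 at 6 h, whereas 2 rose and 26 fell at 24 h, against the same shares of all genes. The effect of MS41 was lower at 24 h for 35 of these 36, beside 14.5% of all genes, while in DMSO 34 rose from 6 h to 24 h, beside 16.7%. Of 7 CDK inhibitors, CDKN1C (p57) rose by 1.18 at 6 h and 1.89 at 24 h, each with an SE of 0.25. CDKN1A (p21) rose by 0.18 and 0.55 (SE 0.04 for each), and CDKN1B (p27) fell by 1.25 (SE 0.03, adjusted p = 7.7e-32) and 0.93. CDKN1B also fell in SEMK2 by 0.44 (adjusted p = 2.1e-05) and with the ENL guides by 0.56 (adjusted p = 0.00031), and CDKN1A rose by 0.51 with the guides (adjusted p = 0.00024). The guides lowered 8 of the 80 other mitosis genes and 9 of the 36 S phase genes and raised none of either, beside 4.98% of all genes lowered and 5.32% raised.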

How the data were processed

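The members and all gene lists were chosen with earlier results of these data known. Per the submitters' processing notes, the tools were HTSeq 0.11.3, HISAT2 2.1.0 and CASAVA 1.8 and the build hg38; the counting settings are not given in the sources used here. The deposited values of the MV4;11 compound, SEMK2 and guide tables are counts per gene, whole numbers that the authors did not normalise as far as the values show. The deposited mouse values were treated like expected counts and rounded, because paired libraries mirrored each other: the deviations of vehicle and MS41 libraries with the same number correlated at -0.99, -0.97 and -0.98 across genes. The mouse fit therefore holds a term for replicate number.

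Each table was filtered (filterByExpr), scaled (TMM) and fitted in edgeR 4.0.16 (R 4.3.3; quasi-likelihood, robust), all 24 MV4;11 compound libraries in 1 fit. Genes tested numbered 22711, 21433 (SEMK2), 17984 (guides) and 21337 (mice), with 16, 4, 3 and 2 residual degrees of freedom. Benjamini-Hochberg adjustment covered every gene of the comparison, with calls made below 0.05. Intervals have a confidence level of 95%. The fit was also run on counts simulated from its own estimate of the spread. The simulation held no GC trend, replicate effect or deviating library, so it cannot show how the fit handles these. Totals, in units of 1000000 counts, were 102.3 to 156.5, 155.9 to 230.6, 77.22 to 87.81 and 99.49 to 126.7 in the 4 tables; precision is limited by the spread between libraries.

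Values in every library are given for the 3 largest called rises and falls of MS41 at 6 h and 24 h, in SEMK2, with the guides and in mice, and for CCNB1, CDK1, PLK1, AURKA, FOXM1 and MYBL2 in each of these comparisons. Those of TTK, SPC25, ESPL1, CDC25B and TOP2A were added after their values were seen. Of other lists, at most the 2 largest changes in each direction are named. Alternatives were DESeq2 1.42.0, its size factors (RLE), no filter, a replicate block, removal of the trend over GC content (lowess, span 0.3), only the groups compared, and each library left out. Promoters are from RefSeq GRCh38.p14.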

Additional observations from a re-analysis of the deposited data

Results flagged for a closer look

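The effect of MS41 in MV4;11 differed between 6 h and 24 h by a test of the difference itself. For 23 of the 44 mitosis genes the effect was lower at 24 h, and for 2, TOP2A (0.11, adjusted p = 0.0059) and PTTG1 (0.21, adjusted p = 0.0015), it was higher, in edgeR, beside 14.5% and 11.9% of all genes. Of these, 2 genes were called in opposite directions at the 2 times. MYBL2, the B-MYB transcription factor, was higher with MS41 at 6 h and lower at 24 h, and its effect changed by -0.41 on the log2 scale. HMMR, a spindle assembly factor, did the same, with a change of -0.31. Both genes stood in all 3 MS41 libraries above the DMSO libraries at 6 h and below them at 24 h. The 6 h rise of MYBL2 was the less firm. It lost its call in edgeR without MS41 replicate 1 (adjusted p = 0.11), without DMSO replicate 2 (0.072) and with no filter on low counts (0.063). The 2 times have DMSO libraries of their own, and in DMSO MYBL2 was higher at 24 h than at 6 h by 0.48.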

How the results depend on the processing

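Over 42 values of single members, 452 of 484 alternatives kept direction and side of the threshold. Of the rest, 16 (in 5 values) lost the call, 16 (in 9 values) gained it and 0 changed sign. These values are the largest called changes and those of CCNB1, CDK1, PLK1, AURKA, FOXM1 and MYBL2. Strong calls were picked by size, so this share does not describe all members. Weaker calls, such as TPX2 at 6 h and ANLN at 24 h with MS41, were lost with DESeq2, RLE scaling and no filter. With the GC trend removed, counts of called members were 3 for PFI-6 at 24 h, 0 for PFI-6 at 6 h, 1 in SEMK2 (BIRC5) and 3 with the ENL guides, and the share of called genes that were higher, over all genes, moved from 51.6% to 60.9% with the guides and from 8.22% to 18.7% with MS41N at 6 h. With no filter on low counts they were 1 for MS41N at 24 h (CENPF), 1 in SEMK2 (PLK1), 9 with both guides, 6 with guide 1, 5 with guide 2 and 1 in mice (TTK). DESeq2 called 6 with guide 1, 5 with guide 2 and 1 in mice (TTK). For PFI-6 at 6 h, RLE scaling gave 1 and a fit of only the groups compared gave 5. A replicate block gave 9 members with both guides, 7 with guide 1 and 5 with guide 2. No replicate block gave 4 in mice, where p-values without it may be too small. The block changed no count of called members in MV4;11 with compounds or in SEMK2. Same-number libraries were not paired by the rule that every pair correlate above 0.1 (MS41 at 6 h: 0.034, 0.17 and -0.13, and SEMK2: -0.093, 0.42 and 0.34). The guides share 1 fit, in which guide 2 with control (0.0068) failed the rule. Guide 1 with control (0.67) passed it but was left unpaired in that fit, which called 3 members for guide 1 against 7 with the block. The cause of these shifts was not tested.

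With each library left out in turn, called members ran from 21 to 26 for MS41 at 6 h, 29 to 32 at 24 h, 21 to 24 and 24 to 27 against MS41N, 16 to 24 and 25 to 30 against PFI-6, and 23 to 26 for the change between times. They ran from 25 to 28 for DMSO over time, 0 to 2 for PFI-6 at 6 h, 9 to 17 for PFI-6 at 24 h, 0 to 19 in SEMK2, 1 to 16 with both guides and 1 to 13 with each guide. They were 0 throughout for MS41N and in mice. Where a guide arm was left with 1 library, that library is assumed to vary like the others. With 2 residual degrees of freedom in mice, 3 with the guides and 4 in SEMK2, small changes could be missed there.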
